A study of Mus musculus with 29 samples.

Results

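Genes behind 3 classes of asthma drug targets were followed here through DNA methylation in mouse lung, namely Nr3c1 and Fkbp5 (glucocorticoid pathway), Chrm1, Chrm2 and Chrm3 (muscarinic receptors) and Pde4a, Pde4b and Pde4d (phosphodiesterase 4). The members were chosen by name, as every genomic window that the deposited table of gene-overlapping windows assigned to one of these 8 genes, which gave 454 of 260686 windows. Each window spans about 50 CpG dinucleotides (median 50), and its length therefore follows CpG density, from 236 to 14495 bases with a median of 6414. The value is the percent of cytosines read as methylated (%DNAm). By gene, there were 20 windows in Nr3c1, 30 in Fkbp5, 3 in Chrm1, 16 in Chrm2, 59 in Chrm3, 16 in Pde4a, 75 in Pde4b and 235 in Pde4d, and 25 of the 454 windows also overlapped another gene.

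The 29 libraries came from lung tissue (labelled RML) of female BALB/c offspring at 13 weeks, by whole genome enzymatic methylation sequencing (WGMS). The Sham group (n = 7) had dams given saline and received no allergen, whereas the Sham-OVA group (n = 7) had saline dams and was sensitised and challenged with ovalbumin (OVA), an egg protein that induces allergic airways disease. The PM group (n = 7) had dams given fine particulate matter (PM2.5) by the intranasal route before and during pregnancy and through lactation, and the PM-OVA group (n = 8) had the same maternal exposure followed by OVA. Every dam therefore underwent intranasal dosing and no group carried a transgene. The labels give no litter, so offspring of the same dam may stand in a group and p-values measure the spread between these libraries only.

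Methylation of the fifth carbon of cytosine in CpG pairs is dense across most gene bodies and absent from most CpG islands, the CpG-rich stretches at which many transcripts start. The glucocorticoid receptor, encoded by Nr3c1, is the transcription factor bound by inhaled corticosteroids. Fkbp5 encodes a co-chaperone that lowers the hormone affinity of this receptor and is itself a classic glucocorticoid-induced gene. Muscarinic receptors answer acetylcholine from airway nerves: M3 (Chrm3) drives contraction of airway smooth muscle and mucus secretion, M2 (Chrm2) limits acetylcholine release from nerve endings, and M1 (Chrm1) acts in airway ganglia. The Pde4 enzymes degrade cyclic AMP, the second messenger that relaxes airway smooth muscle and restrains inflammatory cells, and they are the target of roflumilast.

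The study describes high coverage of every library, but the table gives no read counts, so the depth behind each window's percent is unknown and no counting interval can be given. One library stood apart: Sham replicate 1 had values in 1224 of 1230 windows on the Y chromosome, against 29 to 46 in the other libraries, although all mice were labelled female. Its removal is given where it ended a call and beside the main counts of the Sham arm. The mean over all tested windows was 69.1% ± 0.367 in Sham (SD, n = 7), 68.8% ± 0.597 in Sham-OVA, 69.4% ± 0.463 in PM and 68.4% ± 0.392 in PM-OVA (n = 8).

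The genes differed in their methylation before any comparison. Averaged over windows, Nr3c1 was the least methylated at 49.6% ± 0.493 in Sham lungs (SD, n = 7), followed by Pde4a at 60.4% ± 0.281, Fkbp5 at 67.3% ± 0.421, Pde4b at 71.3% ± 0.418, Chrm1 at 74.5% ± 1.43, Pde4d at 75.7% ± 0.436, Chrm2 at 79.4% ± 0.302 and Chrm3 at 80.2% ± 0.435. Among neighbours in this order, the libraries overlapped between Chrm1 (72.1% to 76.1%) and Pde4d (75.2% to 76.4%) and between Chrm2 (78.9% to 79.7%) and Chrm3 (79.6% to 80.8%), and the other neighbours did not overlap. In all, 16 windows lay under 10% in Sham, 87 from 10% to 70% and 351 at 70% or more. The windows under 10%, called unmethylated here, were in Nr3c1 (5 windows), Fkbp5 (3), Pde4d (3), Chrm3 (2), Pde4b (2) and Pde4a (1). Single libraries of any group reached 17.7% in those of Pde4d and 13.3% in those of Pde4b. No island annotation was used, and island below means such windows. No unmethylated window was assigned to Chrm1 or Chrm2, and the annotated starts of both lie in no assigned window.

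**Figure D1:**
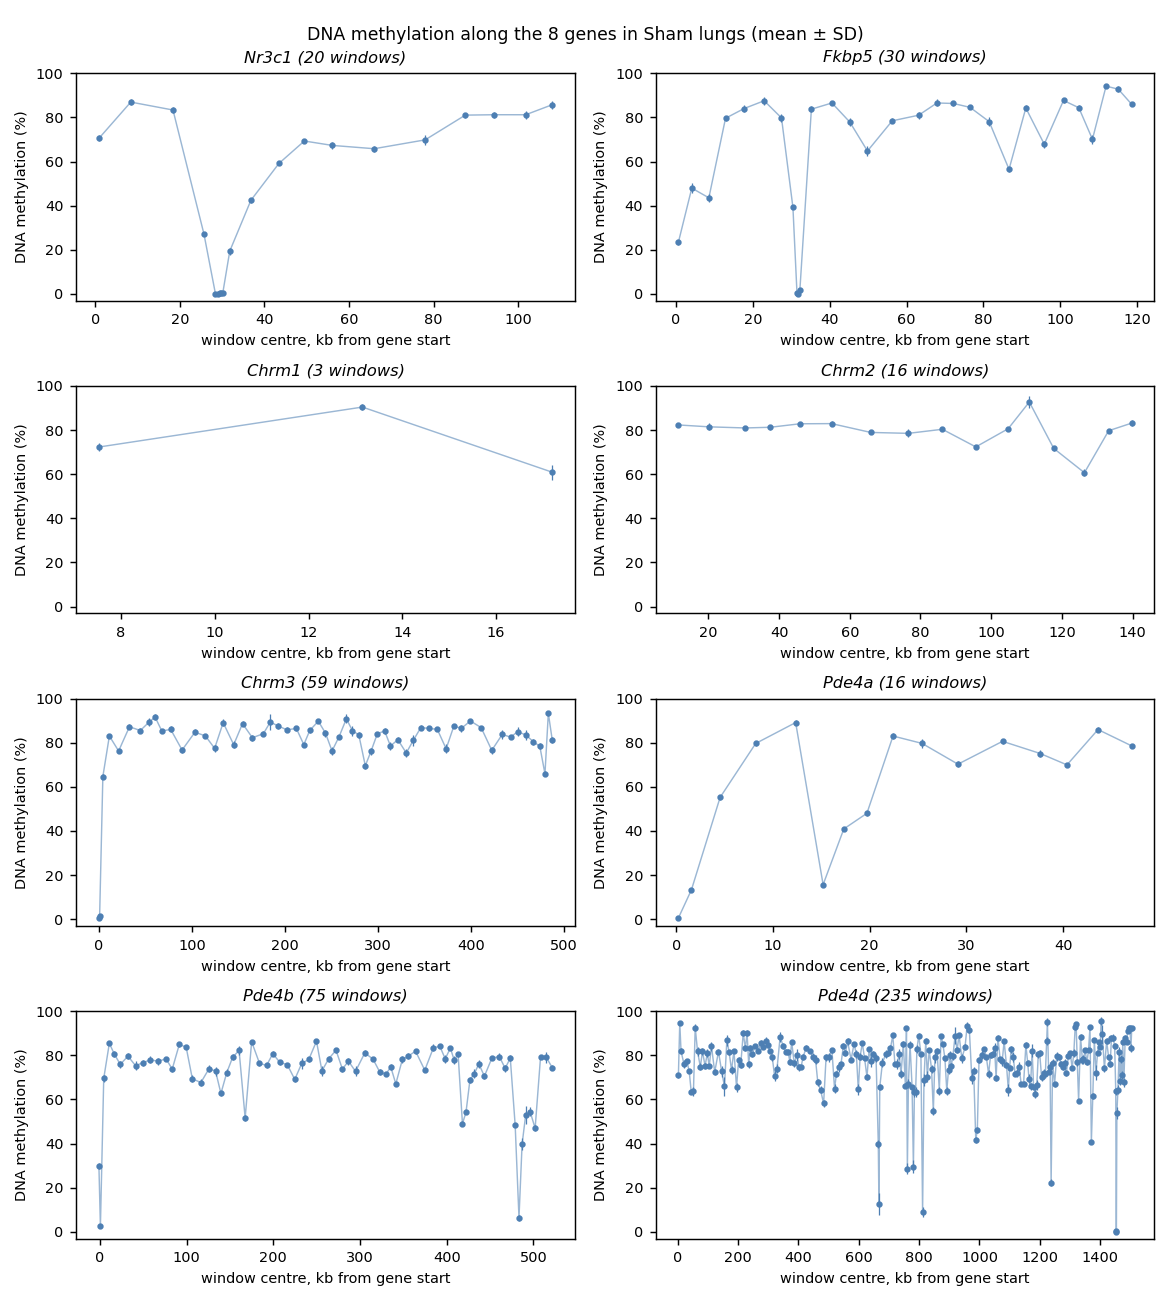
Percent DNA methylation of each window (vertical axis, mean ± SD of 7 Sham lungs) against the distance of the window centre from the annotated gene start in kilobases (horizontal axis), with 1 panel for each gene. The 5 unmethylated windows of Nr3c1 sit near 30 kb, and those of Fkbp5 near 32 kb, while Chrm2 has no window under 60.7%.

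To ask how allergic airways disease altered methylation of these genes, OVA was compared with no OVA within each maternal arm. In offspring of Sham dams, 205 of the 454 windows passed an adjusted p of 0.05 (limma, adjusted over 259167 windows), of which 166 fell and 39 rose, where 35.6% of all windows passed, 22.3% lower and 13.3% higher. In offspring of PM dams, 274 windows passed, of which 247 fell and 27 rose, against a background of 44.1%, with 34.8% lower and 9.26% higher. The median difference over the 454 windows was −1.20 points in the Sham arm and −2.21 points in the PM arm, beside −0.414 and −1.03 points over all windows. When each library was first centred on the median of its differences from the window means, the PM arm gave 210 passing windows, 162 lower and 48 higher, where 18.7% of all windows were lower and 18.9% higher. Without Sham replicate 1, the Sham arm gave 193 windows.

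In whole lung tissue, a change of methylation within a cell type and a change in the share of cell types cannot be told apart. Immune cell marker genes (23 of 25 listed had windows, 173 in all) averaged 1.67 ± 0.229 points below the mean of all windows in Sham, with libraries from −1.99 to −1.40, and 4.09 ± 0.500 below in Sham-OVA, from −4.75 to −3.36. In PM and PM-OVA the ranges were −2.11 to −1.37 and −4.62 to −3.33. Relative to the same mean, marker genes of resident lung cells (25 of 25, 206 windows) moved the other way, from a range of −8.21 to −7.23 in Sham to −6.40 to −5.90 in Sham-OVA, and from −7.96 to −7.21 in PM to −6.57 to −5.60 in PM-OVA. Neither list overlapped between OVA and no OVA in either arm. In the Sham arm, 33.0% of the resident windows rose and 13.1% fell, and 16.8% of the immune windows rose and 42.8% fell. In the PM arm these shares were 26.2% and 18.9%, and 11.6% and 50.9%. Of all windows, 13.3% rose and 22.3% fell in the Sham arm, and 9.26% and 34.8% in the PM arm. The part of both lists in the differences of the drug target genes was not tested.

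In the Sham arm, 147 of the 351 windows at 70% or more fell (41.9%) and 12 rose (3.42%), where 27.3% and 9.06% of all windows at that level did. Among the 87 windows from 10% to 70%, 17 fell (19.5%) and 22 rose (25.3%), beside 13.6% and 23.7% of all such windows. In the PM arm, 220 of the 351 fell (62.7%) and 7 rose (1.99%), beside 42.6% and 5.57%, and of the 87 windows, 24 fell (27.6%) and 17 rose (19.5%), beside 21.5% and 17.7%. Of the 16 windows under 10%, 5 rose and 2 fell in the Sham arm, beside 18.9% and 2.72% of all such windows, and 3 rose and 3 fell in the PM arm, beside 16.6% and 3.40%. The 2 maternal arms share no library, but both comparisons used the same estimate of the spread for each window, so their calls are not independent. Of the windows that passed, 182 passed in the same direction in both arms, which is 88.8% of the Sham list and 66.4% of the PM list, and 0 passed in opposite directions. Over all windows, 76.7% of the Sham list and 61.9% of the PM list passed in the same direction in both arms, and 0.0177% of all windows passed in opposite directions.

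**Figure D2:**
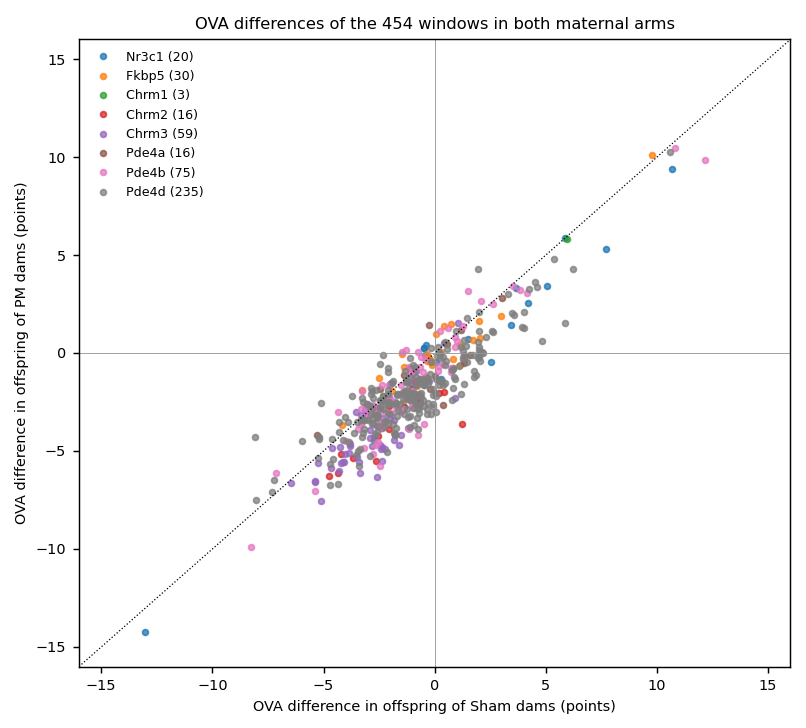
Difference in mean methylation after OVA in offspring of Sham dams (horizontal axis, points) and of PM dams (vertical axis, points), with 1 point for each of the 454 windows, coloured by gene, and a dotted line of equality. In 359 of the 454 windows the PM value is the lower of the pair, as it was in 71.6% of all windows.

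A differentially methylated region (DMR) was defined as a passing window with a difference of at least 10 points. The 8 genes held 5 DMRs in the Sham arm, 4 higher and 1 lower, beside 0.775% of all windows (1242 higher and 766 lower), and 4 in the PM arm, 3 higher and 1 lower, beside 0.584% (682 higher and 831 lower). They were 6 windows in all, of which 3 were DMRs in both arms, in Nr3c1, Pde4b and Pde4d. Without Sham replicate 1 the Sham arm had 4 DMRs, since the Pde4d window then differed by 9.52 points. Only the Nr3c1 gene start stayed on the same side of 10 points in both arms whichever library was left out, and each of the other 5 windows crossed it in at least 1 arm.

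**Figure D3:**
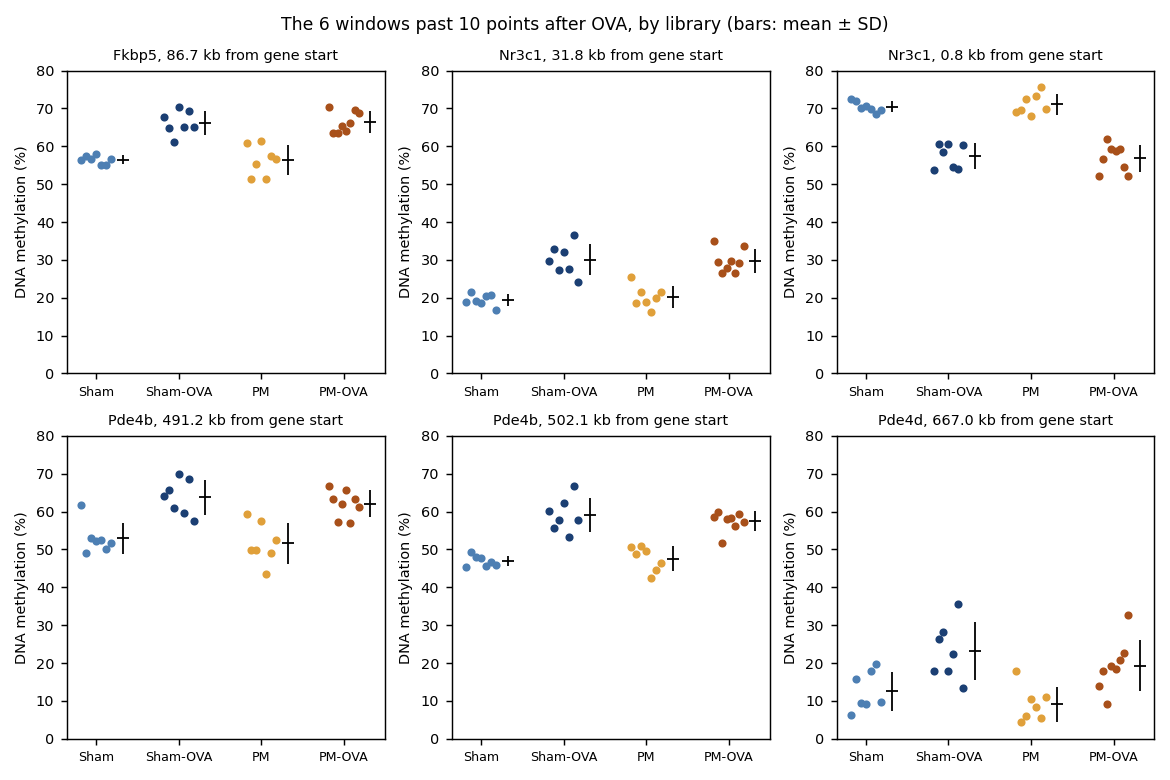
Percent DNA methylation (vertical axis) in every library of the 4 groups (horizontal axis) for the 6 windows that were DMRs in at least 1 arm, with the mean ± SD as bars and the distance from the gene start in each title. The window at the Nr3c1 gene start runs from 68.0% to 75.8% without OVA and from 52.3% to 61.9% with OVA, and the other 5 windows are higher with OVA.

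Nr3c1 changed in opposite directions at its far upstream start and beside its CpG island. The gene lies on the minus strand at chr18:39410545-39519421 (GRCm38). The window at the annotated gene start (chr18:39516063-39521086, 5024 bases with the non-coding first exon of transcript Nr3c1-209) had in Sham a lowest, median and highest value of 68.5%, 70.2% and 72.6%, and in Sham-OVA 53.6%, 58.4% and 60.7%. In PM the values were 68.0%, 69.7% and 75.8%, and in PM-OVA 52.3%, 57.7% and 61.9%. The groups did not overlap in either arm, and methylation fell by 13.0 points in the Sham arm (adjusted p = 2.1e-07, limma) and fell by 14.2 points in the PM arm (adjusted p = 2.0e-08). It was the member window with the largest difference from OVA.

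In contrast, methylation rose beside the island that holds 6 of the 9 coding transcript starts of Nr3c1 in 5 unmethylated windows, about 30 kb inside the annotated gene. The flanking window at chr18:39486212-39489039, which contains the exon with the start of the receptor's coding sequence and 2 further transcript starts, ran from 16.8% through a median of 19.3% to 21.5% in Sham and from 24.1% through 29.8% to 36.6% in Sham-OVA. In PM it ran from 16.3% through 20.04% to 25.5%, and in PM-OVA from 26.4% through 29.4% to 34.9%. Again the groups did not overlap, with a rise of 10.7 points in the Sham arm (adjusted p = 3.9e-06, limma) and 9.41 points in the PM arm (adjusted p = 8.8e-06).

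The rise extended into the gene beyond the island. The next window (36.8 kb from the gene start) rose by 7.70 points in the Sham arm and 5.32 in the PM arm, the one at 43.4 kb by 5.86 and 5.89 points, and the one at 49.4 kb by 3.66 and 3.30 points. Their Sham levels were 42.5%, 59.2% and 69.3%. Farther on, the windows at 87.5 kb and 94.4 kb rose by 5.04 and 4.19 points in the Sham arm and by 3.40 and 2.54 points in the PM arm. Within the island, the 5 windows had Sham means of 0.0292% to 0.573%, and none passed in the Sham arm. In the PM arm 1 of them passed, from 1.38% ± 2.29 in PM to 0.0484% ± 0.0416 in PM-OVA (adjusted p = 0.010, limma), with 1 PM library at 6.47%. In total, 8 Nr3c1 windows rose and 1 fell in the Sham arm, and 6 rose and 3 fell in the PM arm. As shares these were 40% and 5%, beside 13.3% and 22.3% of all windows, and 30% and 15%, beside 9.26% and 34.8%. With centred libraries, 9 rose and 1 fell in the Sham arm, and 8 rose and 2 fell in the PM arm. The mean over its 20 windows was 49.6% ± 0.493 in Sham and 50.9% ± 0.808 in Sham-OVA, a log2 ratio difference of 0.06 ± 0.04 (SE, adjusted p = 0.26, limma on gene means), and it did not pass in the PM arm either (0.01 ± 0.04, adjusted p = 0.86).

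**Figure D4:**
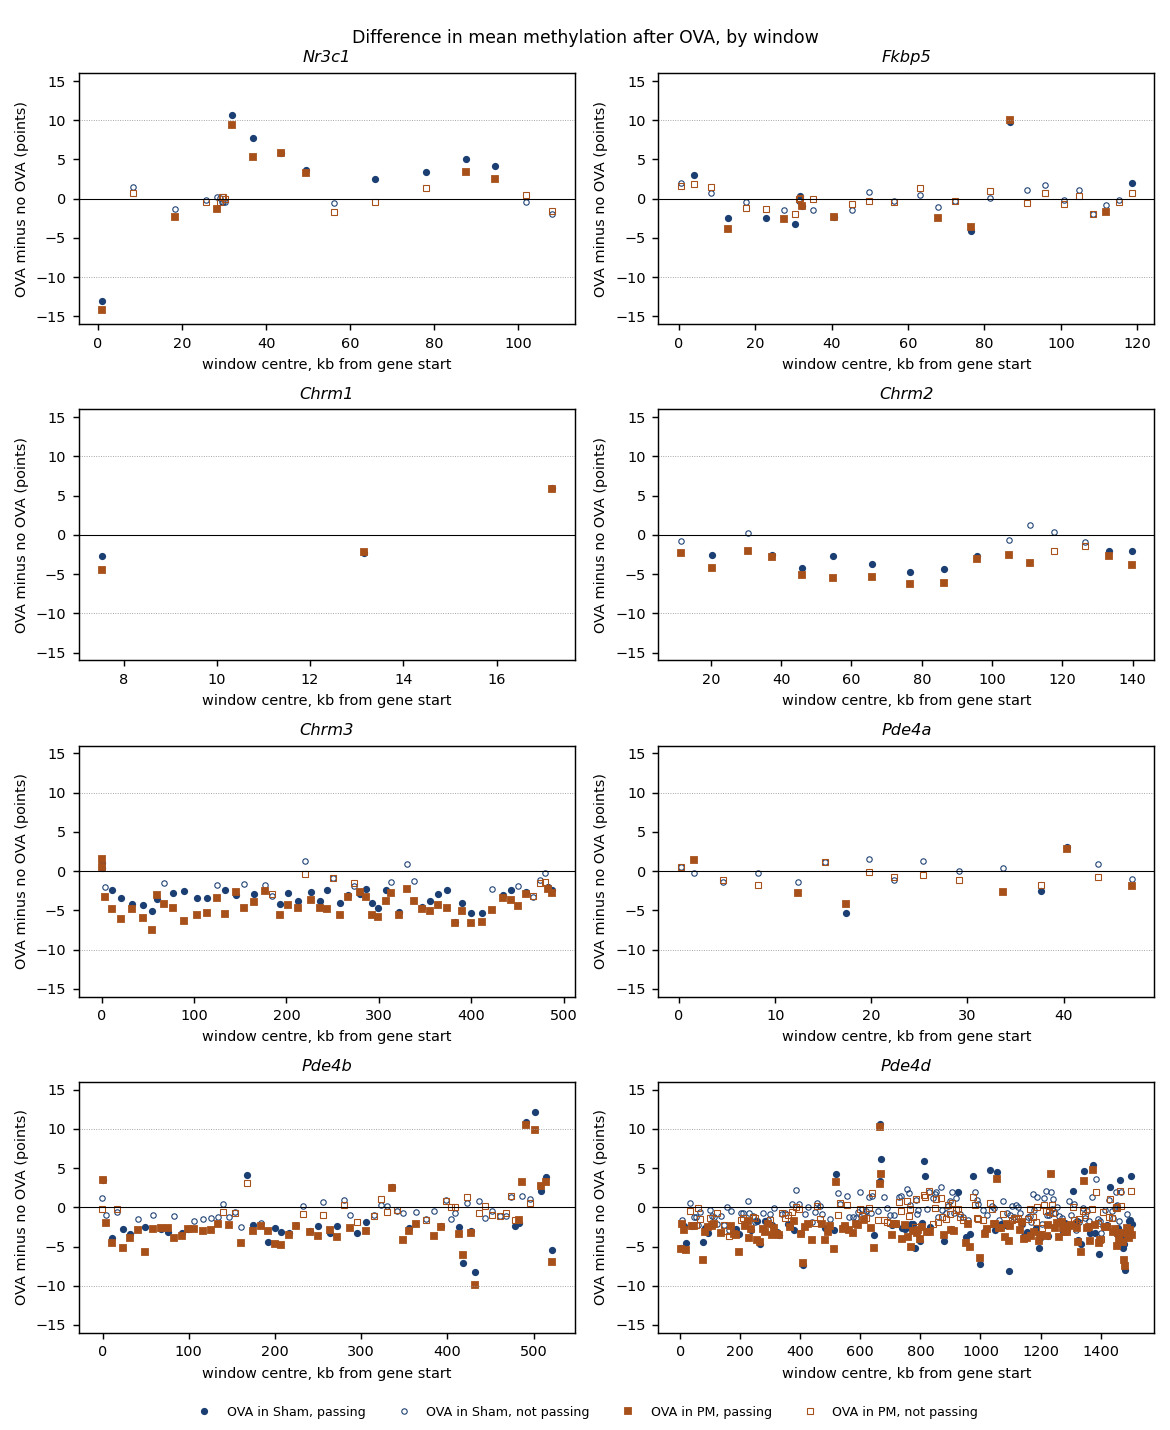
Difference in mean methylation after OVA (vertical axis, points, dotted lines at 10 points) against distance of the window centre from the gene start in kilobases (horizontal axis), with circles for offspring of Sham dams and squares for offspring of PM dams, filled where the adjusted p was under 0.05. Nr3c1 shows −13.0 points at its start and a peak of 10.7 points beside its island, whereas the windows of Chrm2 and Chrm3 lie mostly below 0 along the gene.

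Fkbp5 showed a single strong rise in the body of the gene. The gene lies on the minus strand at chr17:28399094-28517527. The DMR at chr17:28428555-28433198, which includes exon 7 of the 14 exons of transcript Fkbp5-202, ran in Sham from 55.0% through 56.7% to 57.9% and in Sham-OVA from 61.2% through 65.1% to 70.5%. In PM it ran from 51.3% through 56.7% to 61.3% and in PM-OVA from 63.4% through 65.8% to 70.5%. Neither arm overlapped, and the rise was 9.77 points in the Sham arm (adjusted p = 1.9e-05, limma) and 10.1 points in the PM arm (adjusted p = 5.7e-06), on either side of the 10 points. With 1 library left out, the difference ran from 9.07 to 10.6 points in the Sham arm, reaching 10 without Sham replicate 4 or Sham-OVA replicate 2 or 3, and from 9.24 to 10.9 points in the PM arm, falling short without PM replicate 2, 3 or 5 or PM-OVA replicate 1, 7 or 8.

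Elsewhere in Fkbp5 the changes were smaller. Over its 30 windows, 4 rose and 6 fell in the Sham arm, and 1 rose and 7 fell in the PM arm. As shares these were 13.3% and 20% in the Sham arm, beside 13.3% and 22.3% of all windows, and 3.33% and 23.3% in the PM arm, beside 9.26% and 34.8%. With centred libraries the PM arm had 6 rises and 5 falls, and the Sham arm 5 of each. The window at chr17:28438913-28443112, where the coding transcripts Fkbp5-205 and Fkbp5-210 start, fell by 4.18 points in the Sham arm (adjusted p = 3.9e-06, limma), from 84.5% ± 0.769 to 80.4% ± 0.975 (SD, n = 7 each), and by 3.66 points in the PM arm (adjusted p = 1.0e-05). The deepest fall in the PM arm was in an intron (chr17:28502534-28506729), from 80.4% ± 1.99 (SD, n = 7) to 76.6% ± 1.81 (n = 8), where it fell by 3.81 points (adjusted p = 0.00063, limma), and it fell by 2.44 points in the Sham arm (adjusted p = 0.032). The fall in the Sham arm no longer passed with centred libraries (adjusted p = 0.083, limma) or without Sham replicate 2, 5 or 6 or Sham-OVA replicate 2, 5 or 6 (adjusted p = 0.053 to 0.086), and the groups overlapped in both arms. The window at the annotated gene start (chr17:28515622-28518159) had means of 23.4%, 25.4%, 23.6% and 25.3% in Sham, Sham-OVA, PM and PM-OVA and did not pass (adjusted p = 0.080 and 0.11, limma). The mean over all Fkbp5 windows lay between 67.0% and 67.3% in the 4 groups and did not pass.

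The sequence of these Fkbp5 regions differed in CpG content, shown here with each CpG in capitals (plus strand, GRCm38). One is the unmethylated intronic window of 300 bases at chr17:28485622-28485921, with 49 CpG pairs and a level of 0.0730% ± 0.113 in Sham (SD, n = 7). The other is the stretch of 300 bases outside exons that is richest in CpG within the DMR, at chr17:28428631-28428930, with 7.
Fkbp5 island: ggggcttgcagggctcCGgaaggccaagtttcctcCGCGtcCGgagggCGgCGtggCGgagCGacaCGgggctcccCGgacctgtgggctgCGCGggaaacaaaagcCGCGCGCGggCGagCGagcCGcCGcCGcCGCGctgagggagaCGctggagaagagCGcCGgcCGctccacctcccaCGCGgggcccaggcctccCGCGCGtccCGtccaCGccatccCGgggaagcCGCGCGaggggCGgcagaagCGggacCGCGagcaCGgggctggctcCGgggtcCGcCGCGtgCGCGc
Fkbp5 DMR: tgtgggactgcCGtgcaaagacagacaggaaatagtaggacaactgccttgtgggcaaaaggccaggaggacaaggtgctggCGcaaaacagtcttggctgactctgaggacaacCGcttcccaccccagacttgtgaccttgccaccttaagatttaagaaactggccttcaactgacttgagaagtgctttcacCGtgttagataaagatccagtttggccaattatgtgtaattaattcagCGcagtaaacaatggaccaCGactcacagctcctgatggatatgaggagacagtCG
The island window stayed at 0.0730% to 0.360% in the means of all 4 groups, and its difference of 0.287 points in the Sham arm passed (adjusted p = 0.040, limma), where 1 Sham-OVA library reached 1.04%. The study gives conversion only as a lower bound, so levels this low may include unconverted cytosine.

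Because Fkbp5 is a glucocorticoid-induced gene, the member windows were searched on both strands for the glucocorticoid response element, spelled as AGAACA, any 3 bases and TGTTCT, which reads the same on either strand. It was found 4 times, in 4 of the 454 windows (0.881%), against 378 of 260681 windows of the table on assembled chromosomes (0.145%), or 1.37 against 0.258 per megabase. With 1 base changed at most, there were 28 matches, or 9.57 per megabase against 7.23. The exact matches are shown with both 6-base arms in capitals, in Fkbp5 at chr17:28420311-28420345 and chr17:28442409-28442443, and in Pde4d at chr13:108472330-108472364 and chr13:109842944-109842978.
Fkbp5 element 1: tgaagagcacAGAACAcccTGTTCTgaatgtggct
Fkbp5 element 2: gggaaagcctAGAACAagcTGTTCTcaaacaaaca
Pde4d element 1: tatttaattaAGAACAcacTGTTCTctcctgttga
Pde4d element 2: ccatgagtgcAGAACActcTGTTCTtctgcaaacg
Of their windows, that of the second Fkbp5 element is the one that fell by 4.18 points in the Sham arm, and that of the first Pde4d element fell by 4.56 points in the Sham arm (adjusted p = 8.6e-05, limma) and by 5.43 points in the PM arm (adjusted p = 6.3e-06). The other 2 windows did not pass in either arm. A match of letters is no proof of binding, and the window value covers about 50 CpG pairs around it.

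The muscarinic receptors M2 and M3 lost methylation along most of their length. In Chrm3 (minus strand, chr13:9875486-10360847), 40 of 59 windows fell and 2 rose in the Sham arm, and 50 fell and 2 rose in the PM arm. In Chrm2 (plus strand, chr6:36388084-36528414), 10 of 16 fell in the Sham arm and 14 of 16 in the PM arm, and 0 rose in either. The falls were 67.8% and 84.7% of the Chrm3 windows and 62.5% and 87.5% of the Chrm2 windows, beside 22.3% and 34.8% of all windows. The rises were 3.39% of the Chrm3 windows in both arms, beside 13.3% and 9.26% of all windows. The median difference was −2.75 and −4.29 points in Chrm3 and −2.31 and −3.39 points in Chrm2, for the Sham and PM arms, beside −0.414 and −1.03 points over all windows.

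Windows of this kind are long and poor in CpG, and long windows fell more often in the whole table. Among windows of at least 6000 bases, 31.4% of 87569 fell in the Sham arm and 50.0% in the PM arm, with median differences of −1.27 and −1.96 points. Of the 59 windows of that length in Chrm2 and Chrm3 together, 44 fell in the Sham arm (74.6%) and 55 in the PM arm (93.2%), 0 rose in either (background 5.43% and 3.15%), with medians of −2.75 and −4.68 points. With libraries centred, Chrm3 still had 37 falls in the Sham arm and 41 in the PM arm, and Chrm2 10 and 9, where 17.8% of all windows fell in the Sham arm and 18.7% in the PM arm with the same centring.

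Over all windows of Chrm3, the mean was 80.2% in Sham (79.6% to 80.8%) and 77.5% in Sham-OVA (76.3% to 78.6%), and 80.7% in PM (80.2% to 81.2%) and 76.7% in PM-OVA (75.8% to 77.9%). The groups did not overlap in either arm. The log2 ratio of methylated to unmethylated fell by 0.26 ± 0.04 in the Sham arm (SE, adjusted p = 4.1e-06, limma on gene means) and by 0.38 ± 0.04 in the PM arm (adjusted p = 5.6e-09), where 36.1% and 51.3% of all 38141 gene names tested passed. For Chrm2, the mean was 79.4% in Sham (78.9% to 79.7%) and 77.4% in Sham-OVA (75.9% to 79.0%), which overlapped, and 80.1% in PM (79.5% to 80.7%) and 76.4% in PM-OVA (75.8% to 77.6%), which did not. The decrease was 0.15 ± 0.04 on the log2 scale in the Sham arm (adjusted p = 0.0024, limma on gene means) and 0.34 ± 0.04 in the PM arm (adjusted p = 5.0e-08).

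**Figure D5:**
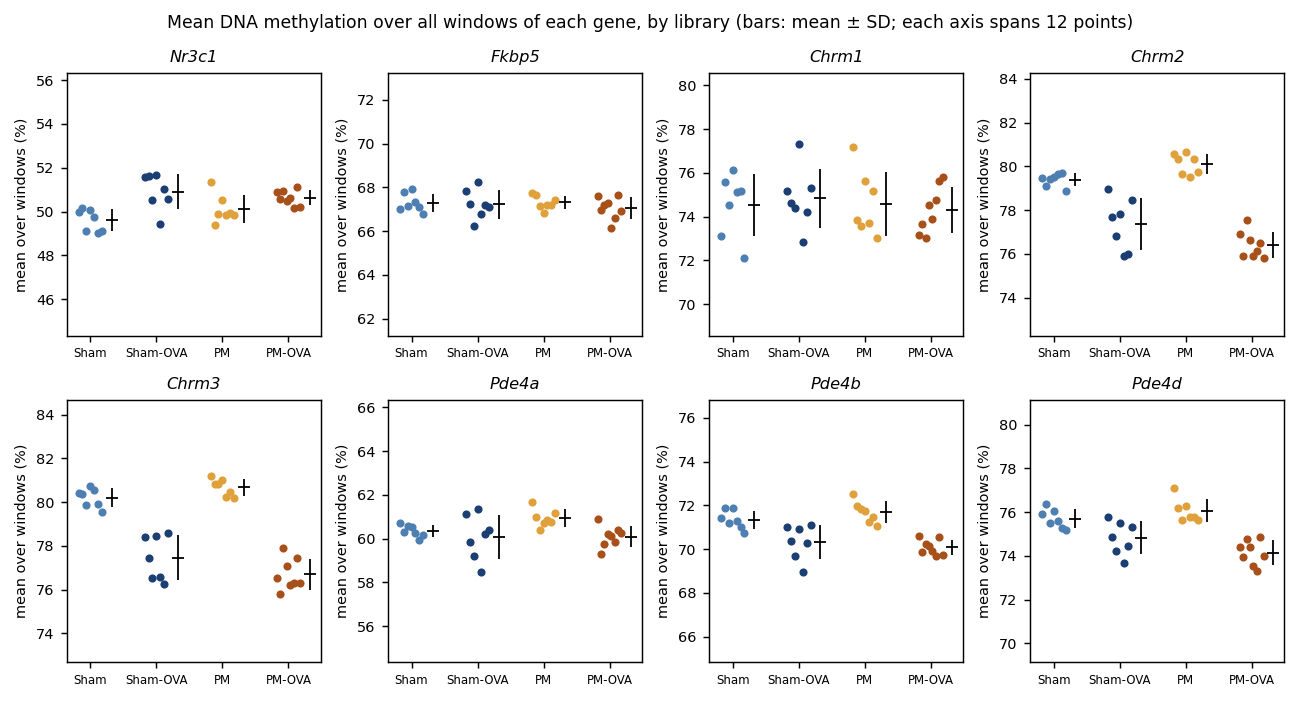
Mean percent DNA methylation over all windows of each gene (vertical axis, each panel spanning 12 points) in every library of the 4 groups (horizontal axis), with the mean ± SD as bars. Chrm3 falls from 80.2% to 77.5% in the Sham arm and from 80.7% to 76.7% in the PM arm without overlap, whereas Fkbp5 stays between 67.0% and 67.3%.

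The deepest loss in Chrm3 for the Sham arm was in intron 4 of transcript Chrm3-202 (chr13:9975309-9982579), from a lowest, median and highest value of 86.8%, 87.4% and 88.2% in Sham to 79.1%, 80.5% and 84.1% in Sham-OVA. In PM the values were 86.6%, 87.9% and 89.5%, and in PM-OVA 79.9%, 80.9% and 84.3%. The groups did not overlap, and methylation fell by 6.45 points in the Sham arm (adjusted p = 5.3e-08, limma) and fell by 6.64 points in the PM arm (adjusted p = 9.1e-09). For the PM arm the deepest loss was in intron 1 (chr13:10303164-10310393), which fell by 7.55 points, from 89.9% ± 2.10 (SD, n = 7) to 82.3% ± 3.62 (n = 8, adjusted p = 1.0e-05, limma). The part of the intron 4 window richest in CpG (chr13:9975430-9975729, plus strand) shows how sparse the pairs are, with 8 in 300 bases, in capitals.
Chrm3 intron 4: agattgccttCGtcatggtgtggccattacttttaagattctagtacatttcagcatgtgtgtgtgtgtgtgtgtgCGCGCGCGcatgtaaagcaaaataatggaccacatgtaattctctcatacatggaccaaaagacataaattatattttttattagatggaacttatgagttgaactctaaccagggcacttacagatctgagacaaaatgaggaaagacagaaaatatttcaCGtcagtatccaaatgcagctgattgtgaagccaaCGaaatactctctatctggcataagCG
The deepest loss in Chrm2 was in the intron at chr6:36460275-36469024, which fell by 4.78 points in the Sham arm (78.5% ± 1.77 to 73.7% ± 2.70, SD, n = 7 each, adjusted p = 0.00088, limma) and fell by 6.29 points in the PM arm (adjusted p = 2.4e-05).

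The 2 windows of Chrm3 that rose lie in its CpG island. Values this low may include unconverted cytosine, since the study gives conversion only as a lower bound. The window just inside the gene (chr13:10359620-10360477) had a lowest, median and highest value of 0.552%, 1.479% and 2.46% in Sham and 1.81%, 2.85% and 3.05% in Sham-OVA, and of 0.524%, 1.57% and 2.16% in PM and 2.20%, 3.04% and 3.76% in PM-OVA. The groups overlapped in the Sham arm but not in the PM arm, and the rises were 1.05 points (adjusted p = 0.0071, limma) and 1.54 points (adjusted p = 0.00018). The window holding the gene start (chr13:10360480-10361165) went from 0.561% ± 0.205 to 0.978% ± 0.453 in the Sham arm (SD, n = 7 each, adjusted p = 0.048, limma) and from 0.450% ± 0.168 to 0.970% ± 0.404 in the PM arm (adjusted p = 0.0066). Neither rise at the gene start passed on the percent scale (adjusted p = 0.27 and 0.14, limma). The call in the Sham arm was lost under 25 alternatives, 20 of which each left out 1 library, and without Sham replicate 1 the difference was 0.350 points (adjusted p = 0.12, with a range of 0.013 to 0.27 over all alternatives, limma).

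Chrm1 (plus strand, chr19:8663789-8683587) had 3 windows, all of which passed in both arms, where 35.6% and 44.1% of all windows passed. The last window (chr19:8678704-8683271) lies wholly in the exon with the coding sequence and rose by 5.97 points in the Sham arm, from 60.9% ± 3.34 to 66.9% ± 2.64 (SD, n = 7 each, adjusted p = 0.0012, limma), and by 5.81 points in the PM arm (adjusted p = 0.00093). Upstream of it, the intronic window at chr19:8667522-8675110 fell by 2.73 points (adjusted p = 0.0091) and by 4.46 points (adjusted p = 4.2e-05, limma). The gene mean did not pass in either arm.

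In the phosphodiesterase genes Pde4b and Pde4d more windows fell than rose. In Pde4b (plus strand, chr4:102087543-102607259), 28 of 75 windows fell and 7 rose in the Sham arm, and 42 fell and 7 rose in the PM arm. In Pde4d (plus strand, chr13:108449948-109953461), 77 of 235 fell and 16 rose in the Sham arm, and 125 fell and 8 rose in the PM arm. The falls were 37.3% and 56.0% of the Pde4b windows and 32.8% and 53.2% of the Pde4d windows, beside 22.3% and 34.8% of all windows, and the rises were 9.33% in both arms for Pde4b and 6.81% and 3.40% for Pde4d, beside 13.3% and 9.26%. These windows were also long, with a median of 6846 bases in Pde4b and 6261 in Pde4d. Of all windows of at least 6000 bases, 31.4% fell and 5.43% rose in the Sham arm, and 50.0% fell and 3.15% rose in the PM arm. The Pde4d shares lie close to these. With centred libraries, Pde4b had 27 falls and 7 rises in the Sham arm and 27 falls and 12 rises in the PM arm, and Pde4d had 65 falls and 29 rises and 74 falls and 16 rises. In Pde4a (plus strand, chr9:21165714-21213248), 2 of 16 fell and 1 rose in the Sham arm, and 4 fell and 2 rose in the PM arm, which is 12.5% and 6.25%, and 25% and 12.5%. With centred libraries Pde4a had 1 fall and 3 rises in the Sham arm and 2 falls and 3 rises in the PM arm. Of all windows, 17.8% fell and 18.3% rose in the Sham arm with centred libraries, and 18.7% and 18.9% in the PM arm.

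The gene means of Pde4b and Pde4d passed in both arms. For Pde4b the mean went from 71.3% ± 0.418 to 70.3% ± 0.786 in the Sham arm (SD, n = 7 each) and from 71.7% ± 0.493 to 70.1% ± 0.347 in the PM arm, with adjusted p of 0.016 and 9.8e-05 (limma on gene means). For Pde4d it went from 75.7% ± 0.436 to 74.8% ± 0.753 and from 76.1% ± 0.524 to 74.2% ± 0.562, with adjusted p of 0.024 and 1.5e-05. Fitted on the 2 groups of the Sham arm alone, neither passed in that arm (adjusted p = 0.066 and 0.065, limma), and Pde4d also did not pass there without Sham replicate 2 or Sham-OVA replicate 3, 5 or 6 (adjusted p = 0.052 to 0.064). Pde4a did not pass in either arm (adjusted p = 0.82 and 0.14, limma).

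Pde4b held 2 DMRs, of which 1 holds downstream transcript starts and 1 is intronic with no annotated coding start. The window at chr4:102586905-102592313, which holds the starts of the coding transcripts Pde4b-201, Pde4b-202 and Pde4b-204, ran in Sham from 45.4% through 46.8% to 49.3% and in Sham-OVA from 53.2% through 57.9% to 66.8%. In PM it ran from 42.4% through 48.7% to 50.8% and in PM-OVA from 51.6% through 58.3% to 60.0%. No library overlapped, and the rise was 12.1 points in the Sham arm (adjusted p = 2.1e-06, limma) and 9.84 points in the PM arm (adjusted p = 1.7e-05).

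The RefSeq promoter table (GRCm38.p6) places 2 Pde4b promoters in this window, shown 5′ to 3′ on the plus strand up to the first annotated exon base and with CpG in capitals. The stretch before Pde4b-201 (chr4:102587308-102587557) holds 0 CpG pairs in 250 bases, and the stretch before Pde4b-202 (chr4:102589593-102589722) holds 1 in 130 bases.
Pde4b promoter 1: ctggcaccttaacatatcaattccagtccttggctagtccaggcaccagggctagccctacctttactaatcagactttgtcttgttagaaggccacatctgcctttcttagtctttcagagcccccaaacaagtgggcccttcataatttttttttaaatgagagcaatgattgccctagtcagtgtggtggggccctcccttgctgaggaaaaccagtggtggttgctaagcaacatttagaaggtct
Pde4b promoter 2: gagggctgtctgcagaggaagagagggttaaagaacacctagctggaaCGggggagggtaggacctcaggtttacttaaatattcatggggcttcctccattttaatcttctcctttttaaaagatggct
The value of the window therefore came mostly from CpG pairs outside these stretches, of which the window has 49 in all.

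The other Pde4b DMR (chr4:102576668-102580739) is intronic. It ran in Sham from 49.1% through 52.3% to 61.9%, in Sham-OVA from 57.5% through 64.0% to 69.8%, in PM from 43.4% through 49.8% to 59.3% and in PM-OVA from 57.1% through 62.7% to 66.9%. The groups overlapped in both arms, through 1 Sham library at 61.9% and 2 PM libraries in the second case. The rise was 10.8 points in the Sham arm (adjusted p = 0.00044, limma) and 10.5 points in the PM arm (adjusted p = 0.00037), and without Sham replicate 1, the library at 61.9%, it was 12.3 points. Its stretch richest in CpG is chr4:102577672-102577971, with 13 pairs in 300 bases.
Pde4b intronic DMR: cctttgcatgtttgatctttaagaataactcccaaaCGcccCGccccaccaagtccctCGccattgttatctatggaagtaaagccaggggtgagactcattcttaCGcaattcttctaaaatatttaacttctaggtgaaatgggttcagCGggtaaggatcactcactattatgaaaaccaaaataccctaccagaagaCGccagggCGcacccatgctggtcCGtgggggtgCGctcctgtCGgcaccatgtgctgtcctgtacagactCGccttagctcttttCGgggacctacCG
Further upstream, an intronic window (chr4:102517004-102521879) fell by 8.27 points in the Sham arm, from 71.7% ± 2.11 to 63.4% ± 1.84 (SD, n = 7 each, adjusted p = 2.2e-06, limma), and fell by 9.88 points in the PM arm (adjusted p = 7.1e-08). The annotated gene start of Pde4b (chr4:102085121-102087763) did not pass, with group means from 29.8% to 31.8%, whereas the island window next to it (chr4:102087764-102088578) rose from 2.64% ± 0.657 to 6.14% ± 2.34 in the Sham arm (adjusted p = 0.0022, limma) and from 4.09% ± 1.67 to 7.51% ± 3.35 in the PM arm (adjusted p = 0.0099).

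In Pde4d the DMR was a CpG-rich window of 716 bases (chr13:109116566-109117281) with the first exon of transcript Pde4d-208, 667 kb into the gene. It ran in Sham from 6.33% through 9.76% to 19.7%, in Sham-OVA from 13.4% through 22.3% to 35.7%, in PM from 4.34% through 8.35% to 17.9% and in PM-OVA from 9.29% through 18.7% to 32.7%. The groups overlapped in both arms and the spread was wide, with an SD of 5.14, 7.60, 4.64 and 6.80 points. The rise was 10.6 points in the Sham arm (adjusted p = 0.011, limma) and 10.2 points in the PM arm (adjusted p = 0.0019). The densest coding stretch of its exon (chr13:109116656-109116955, plus strand) holds 30 CpG pairs in 300 bases.
Pde4d DMR: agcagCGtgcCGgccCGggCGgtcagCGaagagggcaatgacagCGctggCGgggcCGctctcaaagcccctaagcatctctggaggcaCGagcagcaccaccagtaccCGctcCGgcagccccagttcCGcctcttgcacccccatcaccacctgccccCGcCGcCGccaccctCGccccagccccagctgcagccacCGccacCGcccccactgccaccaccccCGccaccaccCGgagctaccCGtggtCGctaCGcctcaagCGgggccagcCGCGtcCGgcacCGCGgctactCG
By contrast, the unmethylated island at another internal start (chr13:109902564-109903056) had means of 0.152% to 0.344% in the 4 groups and did not pass.

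The falls in Pde4d were spread over introns and its 3′ part. The window with the deepest fall in the PM arm, at chr13:109930164-109934765, went from 87.8% ± 1.43 to 79.7% ± 1.99 in the Sham arm (SD, n = 7 each), where it fell by 8.05 points (adjusted p = 1.9e-07, limma), and from 87.1% ± 1.14 to 79.6% ± 2.53 in the PM arm, where it fell by 7.50 points (adjusted p = 3.0e-07). The window with the deepest fall in the Sham arm, at chr13:109543481-109547360, fell by 8.07 points there (adjusted p = 0.00014) and fell by 4.27 points in the PM arm (adjusted p = 0.020, limma), where it no longer passed with centred libraries (adjusted p = 0.18) or without PM replicate 6 (adjusted p = 0.051). The window at the annotated gene start (chr13:108449515-108456209) fell by 5.24 points (adjusted p = 1.8e-05, limma) and fell by 5.38 points (adjusted p = 4.5e-06).

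Pde4a was the phosphodiesterase with the fewest changes. Its gene start, an island window of 438 bases (chr9:21165698-21166135), had means of 0.569%, 1.10%, 0.759% and 1.24% in Sham, Sham-OVA, PM and PM-OVA and did not pass (adjusted p = 0.070 and 0.21, limma). The window with the internal start of transcript Pde4a-203 (chr9:21181844-21184219) fell from 40.9% ± 0.950 to 35.6% ± 1.80 in the Sham arm (SD, n = 7 each), where it fell by 5.29 points (adjusted p = 5.7e-06, limma), and fell by 4.20 points in the PM arm (adjusted p = 5.2e-05). A window over coding exons near its 3′ end (chr9:21204918-21207323) rose by 3.04 points (adjusted p = 0.0049, limma) and 2.82 points (adjusted p = 0.0053).

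Genes that are switched on through cyclic AMP often carry TGACGTCA, the cyclic AMP response element, whose own CpG can be methylated. It occurred in 16 of the 454 windows (3.52%), 13 of them in Pde4d, against 3.16% of all windows on assembled chromosomes, which is 5.47 and 5.72 per megabase. Of the 16 windows, 4 fell and 1 rose in the Sham arm, and 7 fell and 1 rose in the PM arm, where 22.3% and 34.8% of all windows fell and 13.3% and 9.26% rose. In the RefSeq promoters of 300 bases, 1.79% of 32851 hold the element, and 0 of the 11 promoters listed for 6 of the 8 genes do, nor do those 11 hold the exact glucocorticoid element, found in 3 of all promoters.

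The maternal comparison asked whether PM2.5 exposure of the dam alone altered these genes. Without OVA, 0 of the 454 windows passed between PM and Sham offspring (limma), with 29 (20 without Sham replicate 6 or 7, and up to 35 with another library left out) at an unadjusted p under 0.05 against 5.79% of all windows. With OVA, 0 passed between PM-OVA and Sham-OVA, with 32 at an unadjusted p under 0.05 against 5.96%. This count was 50 without Sham-OVA replicate 5 and 22 without Sham-OVA replicate 1. Over all 259167 windows the count passing was also 0 in both comparisons. The smallest p without OVA was in Pde4d (chr13:109740511-109748469), 79.7% ± 1.04 in Sham and 81.6% ± 0.708 in PM (SD, n = 7 each, unadjusted p = 0.0012, adjusted p = 0.77, limma). With OVA it was also in Pde4d (chr13:109753647-109759567), 76.3% ± 1.55 in Sham-OVA (n = 7) and 73.6% ± 1.73 in PM-OVA (n = 8, unadjusted p = 0.00069, adjusted p = 0.79, limma).

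Whether OVA acted differently in the 2 maternal arms was tested as an interaction. Here too 0 of the 454 windows passed (limma), and 56 had an unadjusted p under 0.05, of which 53 were more negative in the PM arm. Over all windows 7.40% had such a p, and 92.4% of those were more negative in the PM arm. With centred libraries the count was 33 of the 454 windows, beside 5.28% of all windows. The smallest p was again in the first of those Pde4d windows, with a lowest, median and highest value of 77.9%, 79.9% and 81.1% in Sham, 79.5%, 79.8% and 81.8% in Sham-OVA, 80.8%, 81.6% and 83.0% in PM and 78.2%, 79.0% and 80.9% in PM-OVA. OVA changed it by 0.799 points in the Sham arm (adjusted p = 0.27, limma) and −2.42 points in the PM arm (adjusted p = 0.00057), and the difference between arms was −3.22 points (unadjusted p = 0.00022, adjusted p = 0.52). This window holds 1 cyclic AMP response element, at chr13:109740636-109740671 with its flanks and with the element in capitals.
Pde4d element: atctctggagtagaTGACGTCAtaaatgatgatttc
By gene mean, the interaction was −0.18 ± 0.05 on the log2 ratio scale in Chrm2 (SE, unadjusted p = 0.0019, adjusted p = 0.46, limma on gene means). The PM arm values were more negative than the Sham arm values in all 16 Chrm2 windows and in 51 of 59 Chrm3 windows, beside 71.6% of all windows, but a difference between arms was not shown after adjustment.

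The wider pathways were counted from lists of their known members. Of 333 windows in 18 glucocorticoid receptor partners and targets, 60 rose and 65 fell in the Sham arm, and 39 rose and 104 fell in the PM arm. As shares these were 18.02% and 19.5%, and 11.7% and 31.2%, where 13.3% of all windows rose and 22.3% fell in the Sham arm, and 9.26% and 34.8% in the PM arm. The median differences were 0.0278 and −0.502 points. The largest change was at Dusp1, a phosphatase induced by glucocorticoids (chr17:26504079-26507232), which rose by 19.5 points (adjusted p = 1.9e-07, limma) and 18.7 points (adjusted p = 1.6e-07), and Sgk1, the serum and glucocorticoid regulated kinase, had a window that rose by 16.2 and 12.3 points (adjusted p = 3.7e-08 and 6.2e-07, limma). Nfkbia, the inhibitor of NF-κB, had the list's only DMR that was lower, which fell by 10.5 points in the PM arm (adjusted p = 9.7e-07, limma) and fell by 7.75 points in the Sham arm (adjusted p = 0.00012). In Tsc22d3, 2 windows rose by 11.4 and 13.2 points in the Sham arm (adjusted p = 0.034 and 0.023, limma). In the PM arm they differed by −1.90 and 0.354 points and did not pass. This gene lies on the X chromosome, and Sham replicate 1 was included. The interaction passed in 0 of all windows.

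Of 504 windows in 19 muscarinic signalling genes, 108 rose and 148 fell in the Sham arm, which is 21.4% and 29.4%. In the PM arm, 88 rose and 191 fell, which is 17.5% and 37.9%. The shares of all windows that rose and fell were 13.3% and 22.3% in the Sham arm. They were 9.26% and 34.8% in the PM arm. Each share of the muscarinic list was thus above that of all windows, in both directions. Plcb2, a phospholipase that acts below Gq proteins, had a window that rose by 15.7 and 12.1 points (adjusted p = 2.0e-06 and 3.0e-05, limma), while Itpr1, an inositol trisphosphate receptor, had a window that fell by 13.1 points in the Sham arm and fell by 12.1 points in the PM arm, and others that rose by 11.2 and 10.4 points in the Sham arm and by 7.88 and 8.48 points in the PM arm. Of 583 windows in 26 cyclic AMP pathway genes, 97 rose and 105 fell in the Sham arm, and 62 rose and 184 fell in the PM arm, which is 16.6% and 18.01%, and 10.6% and 31.6%, so that the shares that fell were below those of all windows. Among the adenylyl cyclases, which make cyclic AMP, a single window of Adcy4 rose by 19.3 and 17.2 points (adjusted p = 1.8e-07 and 1.2e-06, limma). A window of Adcy7 fell by 17.1 points in the Sham arm and fell by 18.5 points in the PM arm (adjusted p = 3.4e-09 and 5.2e-10, limma). Another Adcy7 window fell by 10.2 points in the Sham arm and fell by 9.67 points in the PM arm, and a window of Adcy9 rose by 12.4 and 5.71 points. The medians of these 2 lists were −0.0848 and −0.149 points in the Sham arm and −0.578 and −0.994 points in the PM arm, beside −0.414 and −1.03 over all windows.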

How the data were processed

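The authors sequenced lung DNA from 29 mice by NEBNext enzymatic methyl-sequencing with an unmethylated lambda spike. Per the labels, Trim Galore removed adapters, the DRAGEN methylation pipeline aligned to GRCm38, and SeqMonk made the windows. The deposited values are percent methylation for each window of 100 CpG cytosines (both strands of about 50 CpG pairs) with at least 10 informative CpGs, kept where the window overlapped an Ensembl gene. Each window carries 1 gene name. The chemistry does not separate 5-methylcytosine from 5-hydroxymethylcytosine, and long windows average distant CpGs. No coverage per window is in the values used, so the authors' count test could not be rerun and windows of unequal depth entered with equal weight.

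Here, percents were taken to log2((percent + 1)/(100 − percent + 1)) and fitted by limma 3.58.1 (R 4.3.3) over the 4 groups and 29 libraries, using 259167 windows with at least 3 values in every group, including all 454 member windows, of which 2 lacked values in some libraries (17 values in all) and were fitted on the rest. Adjusted p-values are Benjamini-Hochberg over all tested windows, per comparison. A window passed at 0.05, and differences are of group mean percents in points. Gene-level fits used the mean log ratio over the windows of each gene name. On simulated data, the OVA in Sham comparison recovered 96 of 100 windows changed by 12 points and 99 of 100 changed by 20 points, with 11 false calls among 259167 windows. Only windows of intermediate methylation were changed there, and noise was drawn independently for every library. Recovery of smaller changes, of changes in highly methylated windows, and under shifts shared by a whole library was therefore not tested.

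Windows were annotated with GENCODE M21, and sequence was read from GRCm38. Windows described are those at gene starts (within 2000 bases upstream), the largest passing change in each direction per gene and arm, every DMR, and for the maternal and interaction comparisons the smallest p. Other windows given were chosen after their values were seen. The members, pathway lists and marker lists were chosen with earlier results of these data known. Pathway and marker lists are textbook genes, counted without a test. Alternatives tried were the percent scale, an offset of 5, centred libraries, complete windows only, the 2 groups alone, a replicate block, robust variances, DMR minimums of 5 points and adjusted p under 1e-06, and each of the 29 libraries left out.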

Additional observations from a re-analysis of the deposited data

Results flagged for a closer look

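Among the groups of values of the windows described and of the 8 gene means, 7 of 136 had a single library standing apart by Dixon's test, all 7 of them in windows, and chance alone flags about 1 in 20 groups. Sham replicate 1, the library with values across the Y chromosome, was at 61.9% in the intronic Pde4b DMR, where the other Sham libraries ran from 49.1% to 53.1%. In the Pde4b DMR with downstream transcript starts, PM-OVA replicate 3 was at 51.6% and the others at 56.2% to 60.0%. At the Fkbp5 gene start, PM replicate 5 was at 28.3%, with the others at 21.5% to 23.6%. In the coding exon window of Chrm1, PM replicate 1 was at 65.3%, with the others at 58.2% to 61.2%.

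In the intron 4 window of Chrm3, PM-OVA replicate 7 was at 84.3%, with the others at 79.9% to 81.9%. In the Pde4d window with the smallest p between PM-OVA and Sham-OVA, the same library was at 77.4%, with the others at 72.1% to 74.2%. In the Pde4d window with the deepest fall in the PM arm, Sham-OVA replicate 7 was at 83.8%, with the others at 78.0% to 80.2%.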

How the results depend on the processing

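The count of windows past the threshold stayed within 1.5 times its value under every alternative, from 184 to 210 in the Sham arm and from 210 to 278 in the PM arm, and was 0 under all of them for both maternal comparisons. It was also 0 for the interaction under every alternative but the 2 groups alone, which cannot give an interaction. With each library left out in turn, the counts were 184 (without Sham-OVA replicate 5) to 210 and 254 to 277. The DMR counts of 5 and 4 were more sensitive. With a minimum of 5 points they were 31 and 49, and with an adjusted p under 1e-06 they were 1 and 1. Leaving out a library gave 3 to 6 DMRs in the Sham arm, 3 without Sham-OVA replicate 6, and 2 to 6 in the PM arm, 2 without PM replicate 5, PM-OVA replicate 1 or PM-OVA replicate 7. Member genes passing in the gene-level fit numbered 4 of 8 in each arm, where 36.1% and 51.3% of all gene names passed. They were 3 to 4 with a library left out in the Sham arm and 4 in the PM arm, 5 in both arms on the percent scale or with centred libraries, 5 in the Sham arm with an offset of 5, and 2 in the Sham arm when its 2 groups were fitted alone.

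Libraries with the same replicate number did not deviate together (42 pairs, median correlation 0.014, 1 above 0.1), and 9 of 29 libraries correlated best with their own number. The replicate number is that of the sample titles, and some library names carry another number. A pairing or batch carried by the numbers in the library names was therefore not tested. With the replicate number as a block, 206 and 261 windows passed, with 5 and 4 DMRs. Other named results that did not pass were not followed through the alternatives. Among them, the Sham arm difference of the gene mean had opposite signs on the 2 scales in Chrm1 (−0.050 on the log2 scale and 0.309 points) and Pde4a (0.0106 and −0.263 points). Of the passing windows and genes named by the rule, and the smallest p of each maternal and interaction comparison, 0 changed direction under any alternative. Beside the libraries left out, they kept their side of the threshold in 374 refits and lost a call in 10, of which 6 were the rise at the Chrm3 gene start, and with a library left out they kept it in 1563 and lost a call in 32. The cause of the lost calls was not tested. Read depth per window was not known, so what it limits could not be assessed window by window.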

Other observations

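Across the 29 libraries, the member window that passed most strongly in both arms was an intron of Chrm3 (chr13:9955678-9966618), with means of 89.8%, 84.5%, 90.3% and 83.7% in Sham, Sham-OVA, PM and PM-OVA. The 3 windows of other genes whose values followed it most closely were in Cep112 (Pearson r = 0.971), G3bp1 (r = 0.970) and Fmnl1 (r = 0.968), which all lie on chromosome 11. In Fmnl1 the group means were 70.6%, 54.2%, 70.3% and 54.2%. These were the highest correlations among tested windows with a value in every library. The points share their libraries and OVA groups, so the correlations are a description with no test.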
